A study of Mus musculus with 12 samples.

Results

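TGF-beta and BMP signalling was described across mouse prostate organoids through 43 named genes, taken as the ligands, receptors, antagonists, Smads, latent-protein partners and Id targets listed for the pathway. All 43 were found among the 43243 gene names of the expression tables. The study compared organoids carrying a mutant SPOP (SPOPmut) with control organoids (SPOPwt), in 6 libraries each that carry the pair numbers S0 to S5. SPOP picks the proteins that a cullin ubiquitin ligase marks for turnover. Both groups came from digested prostate tissue grown in Matrigel with EGF at 5 to 50 ng/ml. Per the labels' protocols, Cre fused to an estrogen receptor domain (CreERT2) was switched on in the inducible lines by 1 μM 4-hydroxytamoxifen. It came from a virus with puromycin selection in Line_A and from a TMPRSS2-CreERT2 transgene in Line_B. Mutant cells were then sorted for GFP and control cells passed the sorter without selection, so an effect of that selection and one of the mutant cannot be told apart. The allele R26F133V is named in the protocols for a noninducible system with Cre under the Probasin promoter, and the SPOP allele of the inducible lines, the age of the mice and their strain are not given there. The labels count 5 pairs from a model A and 1 from a model B, without tying either to a library. Separate animals or cultures for the pairs are not stated, so a p-value covers only how far these 12 libraries spread, and that spread may be technical.

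As background, TGF-beta and activin ligands bind a type II receptor, which activates a type I receptor and through it Smad2 and Smad3. BMP ligands use their own type I receptors and Smad1 and Smad5, and both branches share Smad4. TGF-beta is secreted bound to a latent complex that the LTBP proteins tether to the matrix, secreted antagonists trap BMPs and activins, and Smad6 and Smad7 feed back on the receptors. In the prostate the pathway is known for restraining epithelial growth and for exchange between stroma and epithelium.

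Levels were read as RPKM, the authors' read number per kilobase of transcript, scaled to the sequencing depth, so genes can be compared with each other. A value of 1 RPKM in a 2 kb transcript stood for about 56.6 to 82.0 reads, by an estimate of depth of 28280000 to 40980000 reads per library. Of the 43 members, 23 stood at 1 RPKM or more in all 12 libraries, and 41 did so in at least 1. Gdf10, a BMP-related ligand, and Chrdl1, the BMP antagonist chordin-like 1, never did, with at most 0.0339 and 0.0743 RPKM. For the genotype test, genes at 1 RPKM or more in at least 6 libraries were kept, 34 members among 13600 genes.

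**Figure D1:**
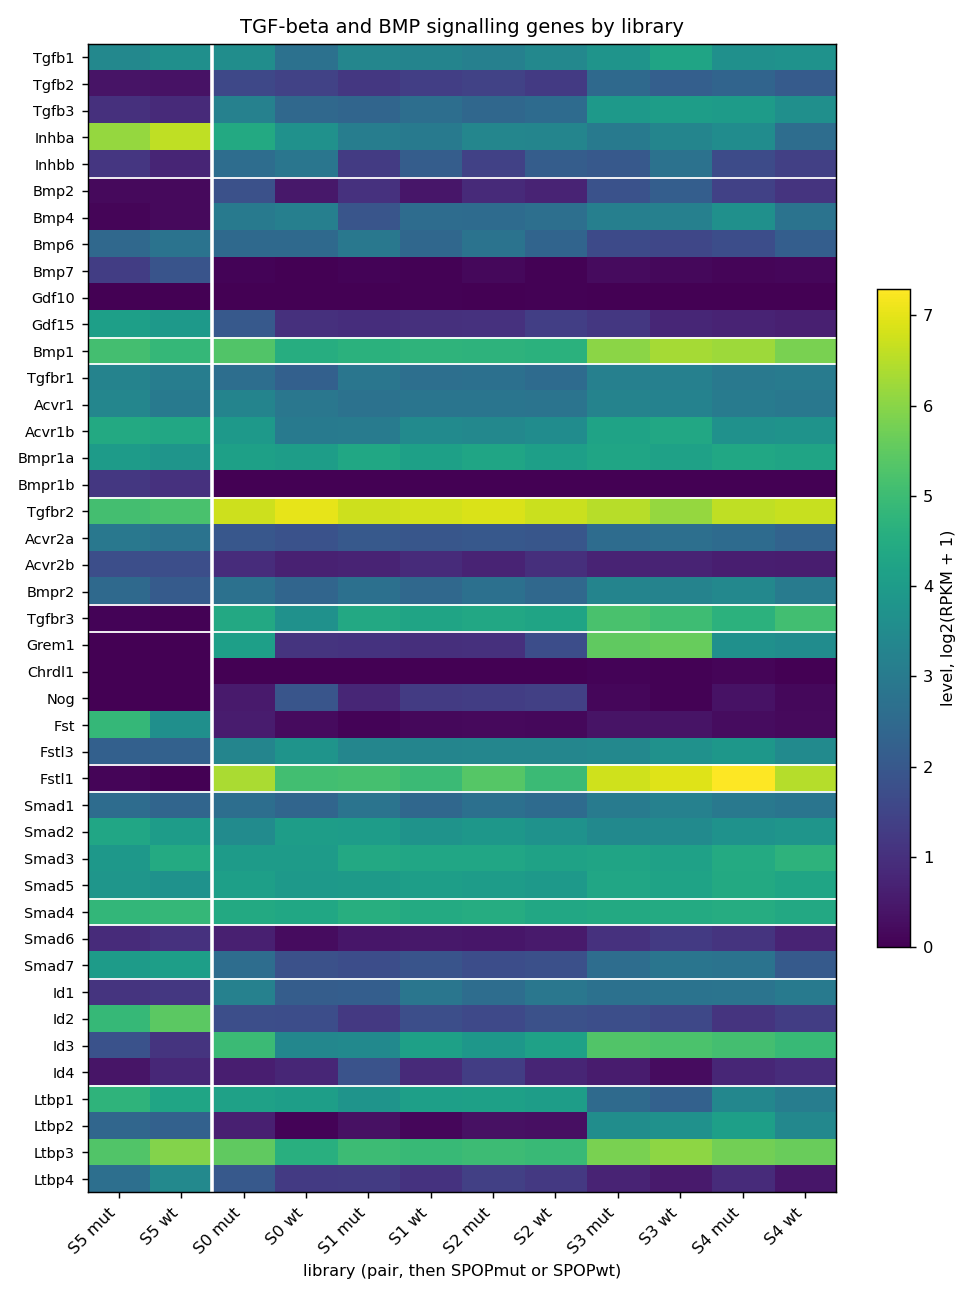
Level of each of the 43 members (rows, grouped by role between white lines) in each of the 12 libraries (columns), as log2(RPKM + 1) by colour, with the S5 pair left of the white vertical line. Tgfbr3, Grem1 and Fstl1 are dark in S5 and bright in most S0 to S4 libraries, while Inhba, Fst and Id2 are brighter in S5.

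The S5 pair stood apart from the S0 to S4 pairs in both genotypes. S5 is 1 pair and was set apart with these data known, so the differences below are descriptions with no test and no replicate check. Both S5 libraries lay above all 10 S0 to S4 libraries for 13 of the 43 members (30.2%) and below all of them for 15 (34.9%). Among all gene names, 14.3% lay above and 11.9% below. Among the 16043 genes at 1 RPKM or more in at least 1 library the shares were 25.4% and 26.7%, against 31.7% and 36.6% of the 41 members that reached it. The median log2(RPKM + 1) difference, S5 minus S0 to S4, was -0.0098 over the 43 members and 0 over all gene names. Over those 16043 genes it was -0.033, and the median over the 41 members that reached 1 RPKM was not computed. The members thus lay on both sides, and a large part of all genes of that level did not overlap either.

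Cell type markers differed between the same libraries. Markers of fibroblasts and smooth muscle, 9 in all, summed to 1.04 to 2.82 RPKM in S5, against 1288 to 2442 RPKM in S0 to S4, with 7 of 9 lower in S5 without overlap; Vim was at 0.0370 to 0.0582 RPKM there, and Thy1 stayed near 0 in all 12 libraries. Summed over 6 basal epithelial markers the level was 2185 to 3118 RPKM in S5, against 0.931 to 8.32 RPKM in S0 to S4, all 6 higher in S5. Over 8 luminal markers it was 2172 to 2449 RPKM in S5, against 34.4 to 149.9 RPKM in S0 to S4, 7 of 8 higher. Epcam, an epithelial adhesion protein, was at 88.6 to 96.3 RPKM in S5, against 0 to 1.28 RPKM in S0 to S4. In S0 to S4 the basal keratins Krt5 (0 to 0.241 RPKM) and Krt14 (0 to 0.201 RPKM) were also near 0, while the basal keratin Krt15 held 0.583 to 8.15 RPKM. Luminal keratins were detected there, with Krt8 at 1.44 to 21.5 RPKM, Krt18 at 6.35 to 89.6 RPKM and Krt19 at 7.06 to 72.2 RPKM. Hoxb13, a prostate transcription factor on the luminal list, went the other way and was lower in S5 without overlap. It was at 4.43 to 5.04 RPKM in S5, against 10.3 to 29.9 RPKM in S0 to S4. The 6 cycling markers summed to 19.4 to 26.7 RPKM in S5, against 34.0 to 275 RPKM in S0 to S4. The part of cell type and of cycling in the differences below was not tested, and in these bulk libraries fewer cells of a type and less RNA per cell cannot be told apart.

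Among the TGF-beta ligands, Tgfb1 overlapped between the sets, while Tgfb2 and Tgfb3 were lower in S5 without overlap. Tgfb1 stood at 9.67 RPKM in S5 SPOPmut and 11.5 RPKM in S5 SPOPwt, against 5.58 to 18.0 RPKM (median 10.3) in the 10 S0 to S4 libraries, and the sets overlapped. Tgfb3 was at 1.00 RPKM in S5 SPOPmut and 0.825 RPKM in S5 SPOPwt, against 4.20 to 15.7 RPKM (median 6.74) in the 10 S0 to S4 libraries, a log2 difference of -2.20, with both S5 libraries below every other. Tgfb2 was at 0.276 to 0.315 RPKM in S5, against 1.27 to 4.67 RPKM in S0 to S4. Of the summed RPKM of the 3 isoforms, Tgfb1 made up 88.0 to 91.2% in S5, against 37.7 to 62.6% in S0 to S4. Tgfb3 made up 6.56 to 9.11% in S5, against 28.8 to 48.8%.

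Inhba, the gene of the activin A subunit, was the most abundant ligand gene of the list in S5 and was higher there without overlap, while in S0 to S4 Tgfb1 had the higher median. It stood at 69.9 RPKM in S5 SPOPmut and 95.9 RPKM in S5 SPOPwt, against 5.14 to 20.5 RPKM (median 8.95) in the 10 S0 to S4 libraries. The S5 mean was 8.56 times the S0 to S4 mean, and the lowest S5 value was above the highest of the others. Inhbb, the subunit of activin B, was lower in S5 without overlap, at 0.680 to 1.20 RPKM in S5, against 1.41 to 6.27 RPKM in S0 to S4.

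The BMP ligands split as well. Bmp4 stood at 0.0775 RPKM in S5 SPOPmut and 0.137 RPKM in S5 SPOPwt, against 2.75 to 11.7 RPKM (median 6.44) in the 10 S0 to S4 libraries, a log2 difference of -2.71. Bmp2 was at 0.143 to 0.146 RPKM in S5, against 0.358 to 3.51 RPKM in S0 to S4, again with no overlap. Bmp7 was low but present only in S5 at 1 RPKM or more, with 1.51 to 2.71 RPKM in S5, against 0.00658 to 0.150 RPKM in S0 to S4. Bmp6 overlapped, at 4.46 to 5.92 RPKM in S5, against 1.91 to 6.49 RPKM in S0 to S4. Gdf15, a stress-induced member of the family, was at 16.2 RPKM in S5 SPOPmut and 14.4 RPKM in S5 SPOPwt, against 0.565 to 3.12 RPKM (median 1.00) in the 10 S0 to S4 libraries, and its S5 mean was 12.8 times that of S0 to S4. Bmp1, a metalloproteinase that trims procollagen and is no BMP ligand, overlapped at 27.8 to 33.6 RPKM in S5, against 22.1 to 78.6 RPKM in S0 to S4.

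**Figure D2:**
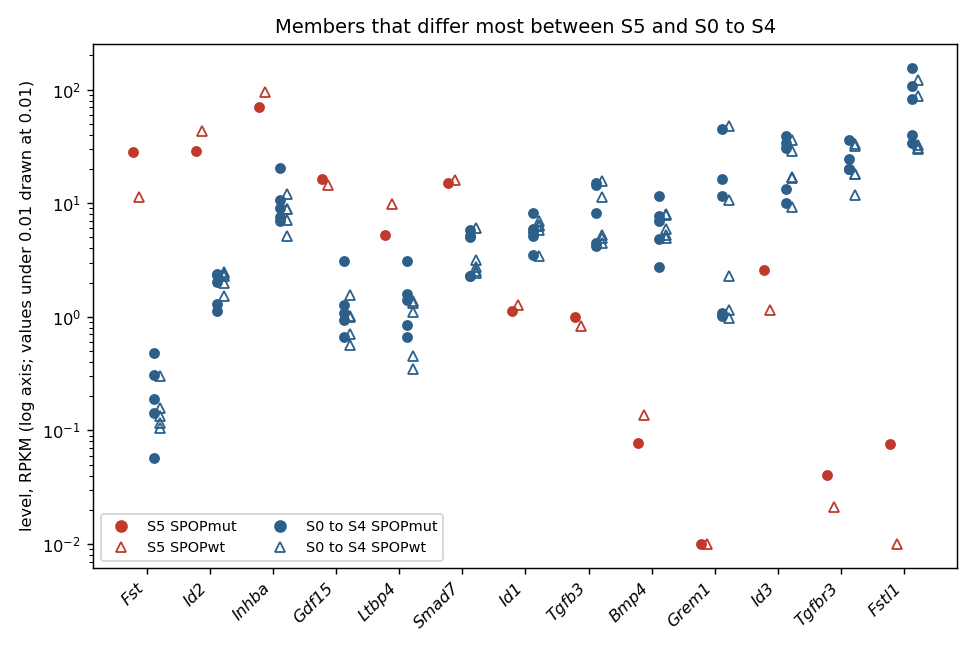
Level in RPKM (log axis) of the 13 members that did not overlap between S5 (red, left of each gene) and S0 to S4 (blue, right), differed at least 4-fold in mean and reached a mean of 5 RPKM; filled circles are SPOPmut and open triangles SPOPwt, 1 symbol per library, and values below the lowest tick are drawn at it. Fst, Id2, Inhba, Gdf15, Ltbp4 and Smad7 are higher in S5, and the other 7 genes lower.

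Of the 10 receptor and co-receptor genes, 4 were higher in S5 without overlap, 3 lower, and 3 overlapped. Tgfbr2, the type II receptor for TGF-beta, had the highest level of the receptors, at 33.8 RPKM in S5 SPOPmut and 35.8 RPKM in S5 SPOPwt, against 69.9 to 128 RPKM (median 104) in the 10 S0 to S4 libraries. It was lower in S5 without overlap, with a log2(RPKM + 1) difference of -1.52, and was still the most abundant receptor gene there. Its partner Tgfbr1 overlapped, at 7.43 to 8.50 RPKM in S5, against 3.71 to 8.04 RPKM in S0 to S4. Tgfbr3 encodes betaglycan, a co-receptor that presents TGF-beta ligands, and was at 0.0403 RPKM in S5 SPOPmut and 0.0210 RPKM in S5 SPOPwt, against 11.8 to 35.6 RPKM (median 20.0) in the 10 S0 to S4 libraries, a log2 difference of -4.49.

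The activin receptors Acvr1b (type I), Acvr2a and Acvr2b (type II) were each higher in S5 without overlap. Acvr1b was at 19.7 to 20.4 RPKM in S5, against 6.93 to 19.7 RPKM in S0 to S4, a narrow gap. Acvr2a was at 5.87 to 6.49 RPKM in S5, against 2.56 to 5.29 RPKM in S0 to S4, and Acvr2b at 2.35 to 2.39 RPKM in S5, against 0.495 to 0.983 RPKM in S0 to S4. Of the BMP type I receptors, Bmpr1a was at 15.1 RPKM in S5 SPOPmut and 13.0 RPKM in S5 SPOPwt, against 15.8 to 19.4 RPKM (median 17.5) in the 10 S0 to S4 libraries, and Bmpr1b was at 1.05 to 1.28 RPKM in S5, against 0 to 0.00500 RPKM in S0 to S4. Acvr1 and Bmpr2 overlapped between the sets. Bmpr1b is thus the single receptor gene listed near 0 in all S0 to S4 libraries, and Bmpr1a stood above it in every library.

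Of the secreted antagonists, Fst was higher in S5 while Grem1, Nog and Fstl3 were lower. Fst encodes follistatin, which traps activins, and was at 28.0 RPKM in S5 SPOPmut and 11.3 RPKM in S5 SPOPwt, against 0.0571 to 0.484 RPKM (median 0.149) in the 10 S0 to S4 libraries. Grem1, the BMP antagonist gremlin 1, was at 0.00713 RPKM in S5 SPOPmut and 0.00588 RPKM in S5 SPOPwt, against 0.978 to 47.5 RPKM (median 6.46) in the 10 S0 to S4 libraries. The S0 to S4 libraries themselves spread widely for Grem1, as given below. Nog, encoding the BMP antagonist noggin, was at 0 to 0.0144 RPKM in S5, against 0.0238 to 2.78 RPKM in S0 to S4. Fstl3, a further activin-binding protein, was at 3.68 to 3.83 RPKM in S5, against 8.88 to 13.5 RPKM in S0 to S4, lower in S5 without overlap. Fstl1, a secreted glycoprotein of mesenchymal cells, showed the most negative difference of all members, -5.87 on the log2(RPKM + 1) scale, with 0.0755 RPKM in S5 SPOPmut and 0.00979 RPKM in S5 SPOPwt, against 30.1 to 155 RPKM (median 60.9) in the 10 S0 to S4 libraries.

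Of the 7 Smad genes, 4 overlapped between the sets. Smad3, the most abundant receptor-activated Smad gene by mean, was at 13.8 RPKM in S5 SPOPmut and 20.9 RPKM in S5 SPOPwt, against 14.9 to 25.1 RPKM (median 18.4) in the 10 S0 to S4 libraries, and Smad1 and Smad2 overlapped too. Smad5 was slightly lower in S5, at 12.1 to 13.3 RPKM in S5, against 14.3 to 20.5 RPKM in S0 to S4. Smad4, the shared partner, was at 27.3 RPKM in S5 SPOPmut and 27.8 RPKM in S5 SPOPwt, against 19.4 to 22.9 RPKM (median 20.7) in the 10 S0 to S4 libraries, higher in S5 by 0.39. The inhibitory Smad7, itself induced by TGF-beta, was at 14.9 RPKM in S5 SPOPmut and 16.1 RPKM in S5 SPOPwt, against 2.31 to 6.07 RPKM (median 2.95) in the 10 S0 to S4 libraries, a mean 4.13 times that of S0 to S4. Smad6, the inhibitor linked to BMP signals, overlapped at 0.864 to 1.06 RPKM in S5, against 0.175 to 1.36 RPKM in S0 to S4.

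The Id genes encode proteins that bind basic helix-loop-helix factors and keep them off DNA, and they are known BMP targets. Id2 was at 28.8 RPKM in S5 SPOPmut and 43.1 RPKM in S5 SPOPwt, against 1.13 to 2.47 RPKM (median 2.16) in the 10 S0 to S4 libraries, a mean 18.1 times that of S0 to S4. Id3 was at 2.56 RPKM in S5 SPOPmut and 1.14 RPKM in S5 SPOPwt, against 9.28 to 38.8 RPKM (median 23.0) in the 10 S0 to S4 libraries, lower in S5 by a log2 difference of -2.99. Id1 was at 1.12 RPKM in S5 SPOPmut and 1.28 RPKM in S5 SPOPwt, against 3.40 to 8.20 RPKM (median 5.85) in the 10 S0 to S4 libraries, a difference of -1.58. Id4 overlapped at 0.334 to 0.768 RPKM in S5, against 0.193 to 2.64 RPKM in S0 to S4. The summed level of the 4 genes overlapped between the sets, at 32.8 to 46.3 RPKM in S5, against 15.7 to 47.3 RPKM in S0 to S4. Id2 made up 87.8 to 93.1% of that sum in S5, against 2.72 to 14.5% in S0 to S4, while Id3 made up 2.47 to 7.80% in S5, against 57.2 to 82.2%.

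**Figure D3:**
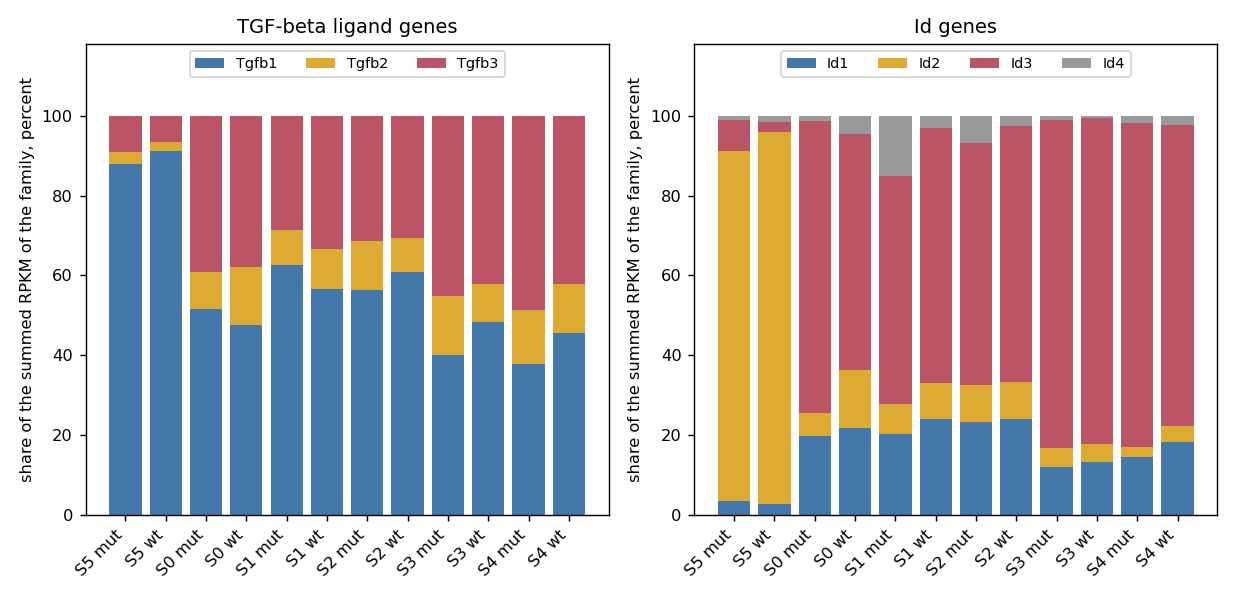
Share of the summed RPKM (percent) of the TGF-beta ligand genes (left panel) and of the Id genes (right panel) taken by each gene, 1 bar per library, with the S5 pair at the left. Tgfb1 takes at least 88.0% of its family in S5 and Id2 at least 87.8% of its own, and neither share is above 62.6% in S0 to S4.

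Promoter sequences are shown for Id2, above S0 to S4 in S5, for Id3, below them, for Id4, which overlapped, and for Inhba and Grem1, the activin gene high in S5 and the BMP antagonist near 0 there. Id1 had no entry. All are RefSeq promoters on GRCm38.p6, 250 bases before to 50 after the annotated start, 5′ to 3′ on the gene's strand. Capitals mark GTCT or its reverse complement AGAC (the repeated unit of the Smad binding element) and GGCGCC (a GC-rich Smad element).
Id2 (chr12:25096043-25096342, minus strand): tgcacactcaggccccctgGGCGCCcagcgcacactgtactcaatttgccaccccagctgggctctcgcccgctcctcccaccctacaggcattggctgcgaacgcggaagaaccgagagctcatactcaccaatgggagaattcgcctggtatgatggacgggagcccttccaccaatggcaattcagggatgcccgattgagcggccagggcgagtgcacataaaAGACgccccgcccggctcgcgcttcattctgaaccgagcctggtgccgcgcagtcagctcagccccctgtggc
Id3 (chr4:136143572-136143871, plus strand): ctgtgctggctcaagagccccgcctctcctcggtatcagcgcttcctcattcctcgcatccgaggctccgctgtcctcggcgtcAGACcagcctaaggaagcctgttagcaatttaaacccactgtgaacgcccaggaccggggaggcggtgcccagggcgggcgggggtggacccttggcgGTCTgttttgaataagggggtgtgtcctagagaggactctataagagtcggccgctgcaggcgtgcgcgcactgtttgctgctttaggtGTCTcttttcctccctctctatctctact
Id4 (chr13:48260866-48261165, plus strand): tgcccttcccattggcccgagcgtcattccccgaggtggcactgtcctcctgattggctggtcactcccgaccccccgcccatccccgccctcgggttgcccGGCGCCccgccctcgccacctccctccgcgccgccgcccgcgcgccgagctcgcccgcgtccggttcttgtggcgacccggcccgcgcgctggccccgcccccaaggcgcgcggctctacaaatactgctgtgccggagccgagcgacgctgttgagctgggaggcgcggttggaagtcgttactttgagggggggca
Inhba (chr13:16011601-16011900, plus strand): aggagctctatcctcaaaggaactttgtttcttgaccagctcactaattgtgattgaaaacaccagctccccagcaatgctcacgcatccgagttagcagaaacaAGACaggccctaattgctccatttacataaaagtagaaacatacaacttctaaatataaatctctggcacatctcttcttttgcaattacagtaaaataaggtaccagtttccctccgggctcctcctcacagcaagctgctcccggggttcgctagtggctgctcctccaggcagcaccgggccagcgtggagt
Grem1 (chr2:113758599-113758898, minus strand): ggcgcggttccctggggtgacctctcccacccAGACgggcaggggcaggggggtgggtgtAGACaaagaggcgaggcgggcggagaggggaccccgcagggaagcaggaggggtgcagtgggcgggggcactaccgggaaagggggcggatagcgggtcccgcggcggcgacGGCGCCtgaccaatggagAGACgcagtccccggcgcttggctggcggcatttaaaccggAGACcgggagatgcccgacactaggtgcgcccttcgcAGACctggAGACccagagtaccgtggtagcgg
On both strands together, GTCT occurred 1 time in the Id2 window, 3 times in Id3, 0 times in Id4, 1 time in Inhba and 6 times in Grem1. GGCGCC occurred 1 time each in Id2, Id4 and Grem1 and not in the other windows. GTCT was found in 88.0% of the 32851 promoters of the same length, so its presence sets none of these apart, and GGCGCC was found in 11.9%. Of 40 promoters listed for 31 of the members, 35 held GTCT and 12 (30.0%) held GGCGCC. Some members have several promoters, and Smad5 and Ltbp4 held GGCGCC in more than 1 of theirs. These shares were not matched for the content of G and C, so they show no enrichment. The palindrome GTCTAGAC, which holds GTCT and AGAC, was in 0.213% of all promoters and in 1 of the 40, that of Smad6. A match of letters is a description, not a site of binding.

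The latent TGF-beta binding proteins were present in both sets. Ltbp3 was the most abundant, at 38.9 RPKM in S5 SPOPmut and 60.0 RPKM in S5 SPOPwt, against 23.4 to 65.5 RPKM (median 37.8) in the 10 S0 to S4 libraries, and overlapped. Ltbp1 was at 18.4 to 25.6 RPKM in S5, against 3.78 to 16.9 RPKM in S0 to S4, and Ltbp4 at 5.28 RPKM in S5 SPOPmut and 9.76 RPKM in S5 SPOPwt, against 0.347 to 3.09 RPKM (median 1.22) in the 10 S0 to S4 libraries. Both were higher in S5 without overlap, Ltbp4 with a mean 6.16 times that of S0 to S4. Ltbp2 overlapped, at 3.78 to 4.33 RPKM in S5, against 0.0537 to 16.2 RPKM in S0 to S4.

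Other genes of the pathway, from lists of 77 ligands, receptors, antagonists, Smad partners and latent-complex genes, lay above S0 to S4 in both S5 libraries for 13 (16.9%) and below for 19 (24.7%), where 14.3% and 11.9% of all gene names did. Smad partners and regulators were 9 of 20 higher and 4 lower, and 5 of 15 antagonists and 3 of 9 receptors and co-receptors were lower with none higher. Of 18 TGF-beta response genes 5 were higher and 8 lower, and of 10 BMP response genes 1 was higher and 3 lower. Many listed genes were not at 1 RPKM in any library, and among all genes that reached it 25.4% were higher and 26.7% lower.

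Over these lists, the differences without overlap were highest for Cdkn2b, Edn1 and Pmepa1. Cdkn2b, a cell cycle inhibitor induced by TGF-beta, was at 24.3 to 32.2 RPKM in S5, against 0 to 0.0566 RPKM in S0 to S4. Edn1, which encodes endothelin 1, was at 39.0 to 75.7 RPKM in S5, against 1.90 to 11.7 RPKM in S0 to S4. Pmepa1, a feedback inhibitor of TGF-beta signalling, was at 45.5 to 49.9 RPKM in S5, against 1.56 to 17.6 RPKM in S0 to S4. All 3 are response or feedback genes of the TGF-beta branch, as are Col1a1 and Acta2 at the other end. Col1a1, a collagen chain, was at 0.162 to 0.202 RPKM in S5, against 269 to 848 RPKM in S0 to S4. Acta2, smooth muscle actin, was at 0.648 to 2.26 RPKM in S5, against 107 to 758 RPKM in S0 to S4, and both genes also stand in the fibroblast and smooth muscle marker list. Decorin (Dcn), a matrix proteoglycan that binds TGF-beta, was at 0.0224 to 0.106 RPKM in S5, against 11.7 to 201 RPKM in S0 to S4.

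The next 4 genes were chosen after their values were seen. Ctgf, a matricellular growth factor, was at 231 to 404 RPKM in S5, against 28.9 to 86.0 RPKM in S0 to S4. Pcsk6, a protease that cleaves ligand precursors, was at 6.01 to 8.20 RPKM in S5, against 0.229 to 1.53 RPKM in S0 to S4. Itgb6, whose integrin releases latent TGF-beta, was at 3.11 to 4.69 RPKM in S5, against 0 to 0.0549 RPKM in S0 to S4. The BMP co-receptor Rgma was at 1.64 to 2.10 RPKM in S5, against 20.0 to 30.7 RPKM in S0 to S4. Ctgf, Pcsk6 and Itgb6 were thus higher in S5, and Rgma lower.

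Levels also varied among the S0 to S4 pairs. Chosen after the values were seen, S3 and S4 lay above S0, S1 and S2 in all 4 libraries for 14 of the 41 members at 1 RPKM or more (34.1%) and below for 5 (12.2%), where 17.5% and 7.02% of the 16043 genes were. Members higher in S3 and S4 included Ltbp2 (9.65 to 16.2 RPKM in S3 and S4, against 0.0537 to 0.546 RPKM in S0 to S2), Bmp1 (56.1 to 78.6 RPKM in S3 and S4, against 22.1 to 39.0 RPKM in S0 to S2) and Tgfb3 (11.4 to 15.7 RPKM in S3 and S4, against 4.20 to 8.27 RPKM in S0 to S2). Those lower included Ltbp1 (3.78 to 9.27 RPKM in S3 and S4, against 12.6 to 16.9 RPKM in S0 to S2) and Nog (0.0238 to 0.288 RPKM in S3 and S4, against 0.442 to 2.78 RPKM in S0 to S2). Grem1 was highest in pair S3, with 44.6 RPKM in the S3 mutant and 47.5 RPKM in the S3 control. It was at 11.5 RPKM in the S4 mutant and 10.6 RPKM in the S4 control, and at 16.5 RPKM in the S0 mutant and 1.14 RPKM in the S0 control. In S1 and S2 the 4 libraries held 0.978 to 2.29 RPKM. The S0 mutant thus lay in the range of S3 and S4 for this gene and the S0 control in that of S1 and S2.

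Between SPOPmut and SPOPwt, limma called 0 of the 34 tested members at an adjusted p under 0.05, with pair as a block. It also called none of the 13600 genes, which gives a background of 0% higher and 0% lower. Leaving out each pair in turn, S5 included, again gave 0 calls. Weighting pairs by their residual spread called 9 genes, none of them a member. At an unadjusted p under 0.05, 3 members were higher in SPOPmut and 0 lower, where 3.82% and 1.77% of all genes tested were. On average 27 of the 34 tested members (79.4%) were higher in SPOPmut, where 50.2% of all genes were. The median log2 difference was 0.13 over the tested members and 0.00055 over all genes tested. Without pair S0 the median over the members was 0.055 and the number higher 25, and with pair weights they were 0.067 and 23. The share and median over all genes were not computed for these 2 settings. By pair, the median over the members and over all genes was 0.40 and -0.0096 in S0, 0.062 and 0.048 in S1, and 0.067 and 0.049 in S2. It was -0.037 and 0.0050 in S3, 0.15 and -0.030 in S4, and 0.046 and -0.00057 in S5. A direction common to all 6 pairs was seen for 2 members, both higher, while 3.62% of all genes were higher and 1.68% lower in all 6. Members were no independent sample of genes, and the shares carry no test.

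**Figure D4:**
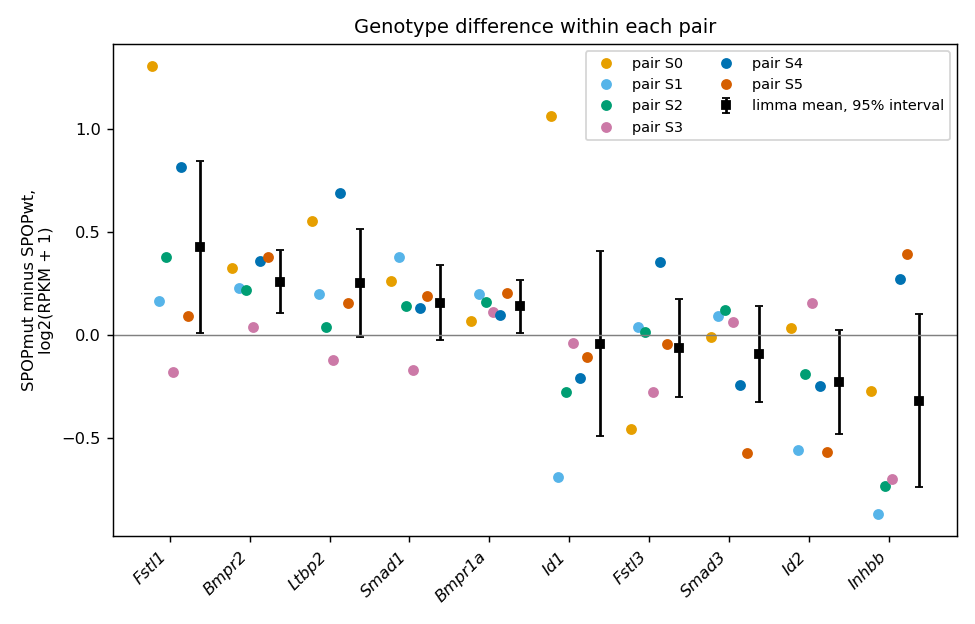
SPOPmut minus SPOPwt on the log2(RPKM + 1) scale for 10 members, the 5 of smallest p in each direction, with 1 coloured point per pair and the limma mean with its 95% confidence interval in black. The points of Bmpr2 and Bmpr1a are above 0 in all 6 pairs, and pair S0 is far above the rest for Id1.

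The smallest p among the members was that of Bmpr2, the BMP type II receptor. It stood at 4.58 to 9.52 RPKM (median 5.50) in SPOPmut, against 3.30 to 8.49 RPKM (median 4.51) in SPOPwt, and the groups overlapped. Within pairs it was higher in SPOPmut in 6 of 6, by 0.04 in S3 to 0.38 in S5. It averaged 6.54 ± 2.05 RPKM in the SPOPmut libraries and 5.37 ± 2.01 RPKM in the SPOPwt libraries (SD, n = 6 each), a log2 difference of 0.26 (limma, SE 0.0666, adjusted p = 0.769). The 95% confidence interval of that difference was 0.11 to 0.41 before adjustment.

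Bmpr1a, its type I partner for BMP signals, was the other member with 1 direction. Its levels were 15.1 to 19.4 RPKM (median 18.4) in SPOPmut, against 13.0 to 18.0 RPKM (median 16.5) in SPOPwt. The pair differences ran from 0.07 in S0 to 0.20 in S5. The fit gave a log2 difference of 0.14 (limma, SE 0.0561, adjusted p = 0.881). Smad1, which these receptors activate, had a positive difference in 5 pairs and a negative one in S3 (-0.17), with a log2 difference of 0.16 (limma, SE 0.0791, adjusted p = 0.887). None of the 3 passed the threshold, so no change of the BMP receptor branch was called. A p that misses the threshold does not show that the groups were alike.

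Fstl1 was higher in SPOPmut in 5 of 6 pairs, at 0.0755 to 155 RPKM (median 60.9) in SPOPmut, against 0.00979 to 122 RPKM (median 31.6) in SPOPwt. The log2 difference was 1.30 in S0, 0.81 in S4 and -0.18 in S3, and the mean was 0.25 without S0. The fit gave a log2 difference of 0.43 (limma, SE 0.182, adjusted p = 0.886). Ltbp2 was higher in 5 of 6 pairs, a log2 difference of 0.25 (limma, SE 0.114, adjusted p = 0.887). On the log2(RPKM + 1) scale the pair difference was largest in S4, with 16.2 RPKM in the S4 mutant and 9.65 RPKM in the S4 control. As a ratio it was largest in S0, with 0.546 RPKM in the S0 mutant and 0.0537 RPKM in the S0 control. The Ltbp2 mean was 0.65 with a pseudocount of 0.1 and 0.13 with pair weights.

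Among the members with a lower mean in SPOPmut, Id2 had the smallest p, with a log2 difference of -0.23 (limma, SE 0.110, adjusted p = 0.887). It was lower in 4 of 6 pairs, with 28.8 RPKM in the S5 mutant and 43.1 RPKM in the S5 control. Inhbb gave a log2 difference of -0.32 (limma, SE 0.182, adjusted p = 0.887): it was lower in S0 to S3 with a lowest value of -0.87 but higher in S4 (0.27) and S5 (0.39). The Inhbb mean was -0.21 without S1 and -0.54 with pair weights. Smad3 gave a log2 difference of -0.091 (limma, SE 0.101, adjusted p = 0.900), Fstl3 a log2 difference of -0.062 (limma, SE 0.103, adjusted p = 0.923) and Id1 a log2 difference of -0.042 (limma, SE 0.195, adjusted p = 0.971). Each of these 3 was near 0 on average. Smad3 and Fstl3 were higher in 3 pairs and lower in 3. Id1 was lower in 5 pairs and higher only in S0 (1.06), and its mean without S0 was -0.26.

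Most member differences of at least 1.5-fold toward the mutant were those of pair S0. In S0, 15 of the 34 tested members (44.1%) were at least 1.5-fold higher in the mutant on the log2(RPKM + 1) scale and 0 lower, where 12.4% of all genes were higher and 12.8% lower. Grem1 differed most, by 3.03 on that scale. Id3 differed by 1.61 (30.4 RPKM in the S0 mutant and 9.28 RPKM in the S0 control), Bmp2 by 1.33 and Tgfb1 by 0.85. In S4, 5 members were at least 1.5-fold higher and 0 lower (all genes 1.54% and 0.853%). They were Inhba, Bmp4, Fstl1, Smad7 and Ltbp2, and 3 of these (Inhba, Fstl1 and Smad7) were also among the 15 of S0. The 6 cycling markers differed within pairs too, with a mean log2 difference, mutant minus control, of -0.75 in S0, 0.51 in S3, -0.30 in S4 and -0.57 in S5. The 8 luminal markers were higher in the mutant by a mean of 0.66 in S0, 0.30 in S3, 0.40 in S4 and 0.14 in S5. In S1 and S2 that mean was negative, at -0.14 and -0.076. Acta2 and Tagln, of smooth muscle, differed by -2.81 and -2.94 in S0, and in S4 both were higher in the mutant. The 9 fibroblast and smooth muscle markers, Acta2 among them, differed by a mean of only -0.059 in S0 and by 0.28 in S4. Within that list Pdgfrb was higher in the S0 mutant (34.4 RPKM, control 15.4 RPKM) and Vim lower (361 RPKM, control 525 RPKM). The part of these markers in the result was not tested.

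The S0 libraries also resembled each other less than other partners did. Deviations from the group means correlated across genes by 0.0602 between the S0 mutant and the S0 control, and by 0.753 to 0.954 in the other pairs. Across genes tested, the S0 control correlated with the S1 and S2 controls by 0.981 and 0.983, and with the S3 and S4 controls by 0.848 and 0.944. The S0 mutant correlated with the S4 and S2 mutants by 0.967 and 0.964, and with the S1 and S3 mutants by 0.954 and 0.944. In S1, S2 and S3 no tested member was at least 1.5-fold higher in the mutant, where 1.89%, 0.463% and 0.566% of all genes were. In S1, 4 members (11.8%) were at least 1.5-fold lower (all genes 1.61%), namely Inhbb, Bmp4, Id1 and Id3. Inhbb and Grem1 were so in S2 (5.88%, all genes 0.471%), and Inhbb alone in S3 (2.94%, all genes 0.941%). In S5, Id3 was higher by that measure (2.94%, all genes 2.29%), and Ltbp3 and Ltbp4 were lower (5.88%, all genes 3.46%).

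In pair S5 the median absolute log2 difference between genotypes was 0.167 over the tested members and 0.163 over all genes tested. Fst was not tested, for its level was under 1 RPKM in all S0 to S4 libraries. In S5 it stood at 28.0 RPKM in the mutant and 11.3 RPKM in the control, a log2 difference of 1.24 in 1 pair. Inhba, whose product follistatin binds, was lower there in the mutant (-0.45), as were Id2 (-0.57), Smad3 (-0.57) and Ltbp4 (-0.78). Id3 was higher (0.73). Whether S5 differs from S0 to S4 in its genotype effect was not tested.

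Outside the members, 56 of the 103 other pathway and response genes were tested and 0 were called. Their median log2 difference was 0.081, with 41 higher on average in SPOPmut (73.2%, where 50.2% of all genes tested were). At an unadjusted p under 0.05 there were 7 higher (12.5%) and 0 lower, where 3.82% and 1.77% of all genes tested were. Postn, a matrix protein induced by TGF-beta, was higher in 6 of 6 pairs by 1.28 (SE 0.360, adjusted p by limma = 0.871). The Postn difference was largest in S0, at 3.10, and its mean without S0 was 0.92. In S5 Postn was near 0, at 0.151 RPKM in the mutant and 0.0691 RPKM in the control. Cd109, a TGF-beta co-receptor, was higher in 6 of 6 by 0.59 (SE 0.185, adjusted p by limma = 0.881). Pair S0 gave Cd109 its largest difference, 1.63, and without S0 the mean was 0.39. The smallest p on the lower side belonged to Klf10, a transcription factor induced by TGF-beta, at -0.19 (SE 0.0994, adjusted p by limma = 0.887), and to Cdkn1a, at -0.28 (SE 0.197, adjusted p by limma = 0.887). The mean of Cdkn1a was -0.12 without S1 and -0.47 without S5.

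In GRCm38 (GENCODE M21), Inhba lies on chromosome 13 at 16011851 to 16031621 (plus strand), Fstl1 on chromosome 16 at 37776873 to 37836514 (plus strand) and Bmpr2 on chromosome 1 at 59763400 to 59879014 (plus strand). Id2 lies on chromosome 12 at 25093799 to 25097140 (minus strand) and Id3 on chromosome 4 at 136143497 to 136145755 (plus strand). Tgfbr3 lies on chromosome 5 at 107106570 to 107289629 (minus strand), Fst on chromosome 13 at 114452290 to 114458951 (minus strand) and Grem1 on chromosome 2 at 113746164 to 113758646 (minus strand). The exons of 13 members overlap those of another gene, 11 of them on the opposite strand, which the library kit does not mark. Their levels may hold reads of the neighbour: protein-coding neighbours are Txndc5 for Bmp6, Orc4 for Acvr2a and Prss57 for Fstl3, and other models overlap Tgfb2, Tgfb3, Bmp4, Bmpr1a, Fst, Id4 and Ltbp2.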

How the data were processed

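RNA-seq of 12 mouse prostate organoid libraries, 6 SPOPmut and 6 SPOPwt in pairs S0 to S5, was read as RPKM deposited by the authors. Per the labels' protocols, TruSeq RNA v2 libraries, which mark no strand, were sequenced in paired ends. STAR 2.4.0j and mm10/GRCm38 are named in the submitters' processing notes; the counting tool and annotation are not stated in the labels or headers. The deposited RPKM values summed to 316623 to 358260 per library. Depth was estimated from the steps between low values. Only 41.3 to 44.4% of low values fell within 0.04 reads of the best grid, so whole reads were not recovered and no count test was run. A step may stand for a read or a pair.

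Values were tested as log2(RPKM + 1), a scale that understates the change of low genes, with limma 3.58.1 (R 4.3.3), pair as a block, trended and robust variance, two-sided, Benjamini-Hochberg over 13600 genes at 1 RPKM or more in at least 6 libraries, and called at 0.05. The script was tested on simulated data. The labels' protocol speaks of pairs. Deviations of same-numbered libraries from their group means, S5 included, correlated by 0.753 to 0.954, except in S0 (0.0602). Libraries of different numbers were not correlated across genotypes in this way, so these values cannot show that the numbering marks true pairs. At the estimated depth, libraries of a group differed by a median chi-square of at least 1.09, against 0.455 from sampling alone. The lowest value was that of the S1 and S2 controls (correlation 0.997), followed by the S1 and S2 mutants (1.84, correlation 0.994). That chi-square scales with the read number, and a step may be a read or a pair. It therefore cannot show that the S1 and S2 libraries are separate samples. S5 was set against S0 to S4 with no test, by whether both S5 libraries lay outside the range of the other 10.

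The members and all gene lists were chosen with earlier results of these data known. Genes were named where they did not overlap, differed at least 4-fold in mean and reached 5 RPKM, where they led their role by mean level, or, for genotype, by the smallest p (up to 5 in each direction) or a direction shared by 6 pairs. Of genes that are not members, the 2 of smallest p in each direction and the 3 with the largest differences in S5 in each direction were named. Alternatives were another pseudocount, other filters, quantile normalization, no block, pair weights and pairs left out. Of the 43243 gene names, 39432 (91.2%) were in GENCODE M21. RefSeq promoters matched 31 members. Some genes of the lists are not reported here.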

Additional observations from a re-analysis of the deposited data

Results flagged for a closer look

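Among 84 groups of 5 or 6 values examined, 5 held a value far from the rest, and chance flags about 1 in 20 such groups. Fstl3 stood at 13.5 RPKM in the S4 SPOPmut library, where the other SPOPmut libraries of S0 to S3 held 8.88 to 9.53 RPKM. Smad7 stood at 6.07 RPKM in the S3 SPOPwt library, where the other controls of S0 to S4 held 2.43 to 3.17 RPKM. In the same library Id4 was low, at 0.193 RPKM, where the other controls held 0.674 to 0.899 RPKM. Id1 stood at 3.40 RPKM in the S0 SPOPwt library, where the other controls of S0 to S4 held 5.78 to 6.99 RPKM. The SPOPmut minus SPOPwt difference of Id1 in pair S0 was 1.06 on the log2(RPKM + 1) scale, while the other 5 pairs ran from -0.69 to -0.038.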

How the results depend on the processing

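With pair weights limma called 9 of all genes tested (7 higher in SPOPmut, lowest adjusted p = 0.0253), where equal weights called 0, and the cause was not tested. All other settings run gave 0 calls over all genes, and every setting, pair weights included, gave 0 among the members. Without the replicate block the lowest adjusted p over all genes was 1.00. The members' count with a higher mean, a quantity chosen after seeing the data, ran from 23 (pair weights) to 32 (no filter on low values, with more members tested). Leaving out each pair in turn moved the median over tested members, chosen likewise, between 0.055 (without S0) and 0.13. Neither quantity was computed over all genes in these settings. Of the 10 members named for genotype, signs turned for 3. Without S0 the means of Grem1 (0.40), Acvr1b (0.029) and Ltbp3 (0.062) also turned, to -0.12, -0.15 and -0.10. Smad3 was 0.019 with pair weights, 0.0049 without S5 and 0.0082 without S0 and S5. Fstl3 was 0.017 without S0 and 0.032 without S0 and S5. Id1 was 0.088 without S1 and 0.0050 without S2. With 1 pair left out, Smad3 reached -0.13, Fstl3 -0.15 and Id1 -0.26 at the lowest. Ltbp2 failed the filter on low values where S3, S4 or S5 alone was left out, and passed without S0 and S5 together. For Fstl1 the difference ran from 0.25 to 0.55 with pairs left out. In S5, a gap of at least 2-fold left 8 members higher and 10 lower, fewer by construction. The share of all genes with such a gap was not computed, so these counts have no background. The Smad3 difference was -0.40 in SPOPmut and 0.18 in SPOPwt libraries. With a pseudocount of 0.1 the S5 difference was -8.76 for Fstl1 and 6.01 for Fst, and no S5 difference of a member named by size turned in sign.

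The depth leaves genes at a few hundredths of 1 RPKM with few reads. Pairs S0 to S4 hold Epcam at 1.28 RPKM or less, S5 is 1 pair, and genotype and GFP selection cannot be told apart.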
